A study of Mus musculus with 6 samples.

Results

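The regions described here are 1 kb tiles of the mouse genome in which few cytosines were measured and nearly all of those were unmethylated. Cytosines present in all 6 libraries were grouped in fixed 1 kb tiles, and a tile was kept when it held 3 to 14 of them and when its methylation level, the mean over the 6 libraries, was under 10%. This gave 9392 of the 108943 tiles with at least 3 cytosines. They were split by their neighbours: 2857 lay next to a tile with 30 or more cytosines and are called beside-dense tiles, and the other 6535 are called isolated tiles. The tiles were chosen by their methylation levels, so the low level itself is a description and not a result. The contrast of genotypes was not used in the choice.

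DNA came from naive B cells of C57BL/6 spleens, with 3 libraries of genotype TET2 Knock-Out (KO) and 3 of TET2 Wild-Type (WT). Not stated in the labels are the allele or Cre behind the knockout, the age and sex of the mice and whether each library came from its own animal, so the p-values reflect only how far these libraries spread, which may be technical. The series' design text names germinal centre B cells, while the sample labels name naive B cells, which were followed. Methylation was read by enhanced reduced representation bisulfite sequencing, in which restriction fragments are sequenced after bisulfite has turned unmethylated cytosines into T. The assay reads 5-methylcytosine and 5-hydroxymethylcytosine alike as C. Each library held 1551481 to 1626375 cytosines, with coverage that summed to 168455105 to 207065050. Read counts given below for tiles are likewise summed over cytosines, so a read counts once for each cytosine it covers. In Tet2 itself, 6 cytosines (chromosome 3, 133486189 to 133486297) had 28 to 71 reads in each WT library and were listed in no KO library, where a cytosine needs at least 10 reads to be listed, while 111 other cytosines of the gene were measured in all 6. RNA was not measured, so the labelled cell type was not checked against marker transcripts.

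Most CpG cytosines of mammalian DNA are methylated. The exceptions are CpG islands, where CpGs are dense and often lie at promoters, the shores that flank them, and regulatory elements such as enhancers to which transcription factors bind. TET2 oxidises 5-methylcytosine, a step towards its removal, and is known to act at enhancers in blood cells.

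The word CpG-poor describes these tiles only in part, because the rule counts measured cytosines and not the CpGs of the sequence. Promoter sequences from RefSeq (build GRCm38.p6, 250 bases before to 50 after a gene's start) allowed a check at 21237 starts of 17468 protein-coding genes. Isolated tiles held 1665 of these starts. Their promoters had a median of 15 CpGs and a median observed/expected CpG ratio of 0.630, where 1 is the number that the base composition gives. Of them, 806 (48.4%) were CpG-rich, with a ratio of at least 0.6 and at least 50% G and C. Only 13.7% of the CpG cytosines in these promoters were measured in all libraries. In beside-dense tiles 239 of 380 promoters (62.9%) were CpG-rich, against 88.7% in unmethylated tiles with 30 or more cytosines (dense tiles below) and 6.81% in tiles of 3 to 14 cytosines methylated at 90% or more. A start lay in 22.5% of isolated and 11.9% of beside-dense tiles, and the CpG content of the others was not checked. As the rule counts measured cytosines, all the tiles are called sparsely measured, or sparse, from here on.

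**Figure D1:**
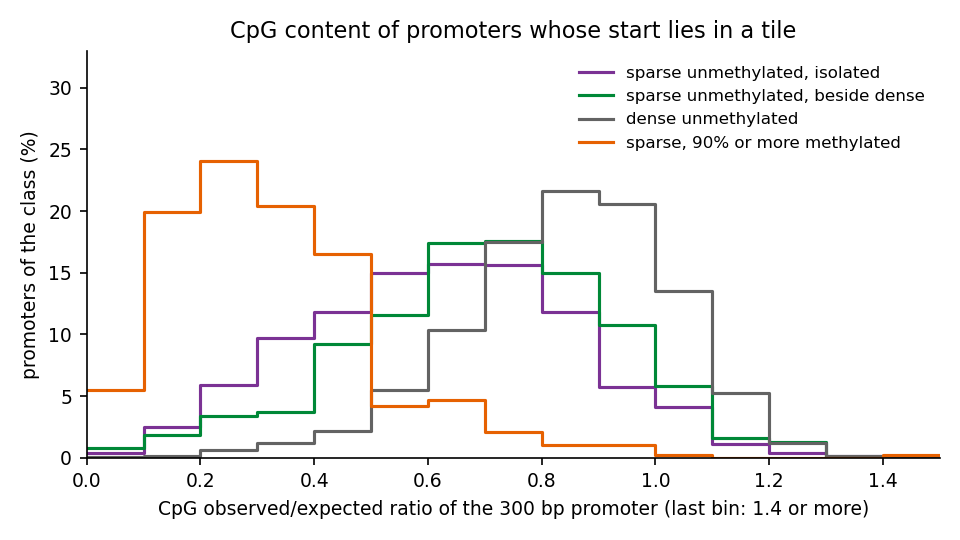
Distribution of the observed/expected CpG ratio (x axis) over the promoters whose start lies in a tile, as the percent of promoters of each tile class (y axis). The sparse unmethylated classes have medians of 0.630 (isolated) and 0.705 (beside dense), between sparse methylated tiles at 0.304 and dense unmethylated tiles at 0.856.

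The 4 promoters below belong to the isolated tiles named in this report with the most measured cytosines, and a further one, of Csf3r, was added after the values were seen because it had the lowest CpG ratio among them. Each is the 250 bases before the start, 5′ to 3′ on the gene's strand, with every CpG in capitals (RefSeq, GRCm38.p6).
Cxcr4: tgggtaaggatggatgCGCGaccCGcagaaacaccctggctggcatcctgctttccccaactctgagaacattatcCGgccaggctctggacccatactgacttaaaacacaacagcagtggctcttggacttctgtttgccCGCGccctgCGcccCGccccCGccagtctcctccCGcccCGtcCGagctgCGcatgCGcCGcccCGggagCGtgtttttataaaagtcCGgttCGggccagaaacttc
Ebf1: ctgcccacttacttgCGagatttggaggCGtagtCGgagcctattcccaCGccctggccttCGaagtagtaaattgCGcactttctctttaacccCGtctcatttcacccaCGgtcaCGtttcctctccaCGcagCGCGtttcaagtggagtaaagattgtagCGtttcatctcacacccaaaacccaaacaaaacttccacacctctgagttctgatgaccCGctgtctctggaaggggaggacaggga
Neurod1: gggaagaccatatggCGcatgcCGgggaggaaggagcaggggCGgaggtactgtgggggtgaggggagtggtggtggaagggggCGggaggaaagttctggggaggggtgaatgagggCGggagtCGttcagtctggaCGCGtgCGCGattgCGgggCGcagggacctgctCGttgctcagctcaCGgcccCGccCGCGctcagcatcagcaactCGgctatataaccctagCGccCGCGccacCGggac
Tbx21: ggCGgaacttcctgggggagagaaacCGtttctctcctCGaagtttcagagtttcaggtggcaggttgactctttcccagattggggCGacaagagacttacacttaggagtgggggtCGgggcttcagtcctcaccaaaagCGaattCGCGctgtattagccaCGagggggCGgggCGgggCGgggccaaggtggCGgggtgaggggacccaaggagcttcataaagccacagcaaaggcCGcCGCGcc
Csf3r: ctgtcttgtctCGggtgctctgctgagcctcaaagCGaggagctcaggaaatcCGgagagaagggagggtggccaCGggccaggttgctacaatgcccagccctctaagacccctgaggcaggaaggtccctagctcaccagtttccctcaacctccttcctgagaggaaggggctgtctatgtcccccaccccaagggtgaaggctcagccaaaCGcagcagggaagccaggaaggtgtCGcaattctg

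The first 4 hold many CpGs although few cytosines of their tile were measured. Cxcr4, the receptor for the chemokine CXCL12, has 19 CpGs in the printed sequence (chr1:128592300-128592549, minus strand), and 12 cytosines there were measured in all libraries, at a mean of 0.124% over the libraries. Ebf1, a master regulator of early B cell development, has 14 CpGs (chr11:44619978-44620227, plus strand) and none of their cytosines was measured in all 6 libraries. Neurod1, a neuronal and endocrine transcription factor, has 22 CpGs (chr2:79456637-79456886, minus strand) and 2 measured cytosines, at 1.01%. Tbx21, the T-box factor of type 1 helper T cells and natural killer cells, has 16 CpGs (chr11:97115332-97115581, minus strand) and 0 measured cytosines. Csf3r, the receptor of granulocyte colony-stimulating factor, has 6 CpGs (chr4:126024409-126024658, plus strand) and 3 measured cytosines, at 4.02%.

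Promoter motifs were searched as exact letters on both strands of the 300 bp windows. The GC box GGGCGG, a site of Sp1-type factors, occurred in 55.7% of promoters in isolated tiles, 58.2% in beside-dense tiles, 78.6% in dense tiles and 46.2% of all 21237 promoters. The CCAAT box was found in 42.9%, 41.8%, 33% and 38.2% of the same classes, and the TATA box TATAAA in 7.75%, 7.11%, 4.40% and 12.6%. The Ets motif CCGGAAG was found in 16.2%, 10.5%, 19.4% and 11.6%, and the octamer ATTTGCAT, bound by Oct factors in B cells, in 1.92%, 1.32%, 0.986% and 1.66%. The cyclic AMP response element TGACGTCA was found in 3.18%, 2.37%, 3.44% and 2.24%. CCGG, which the usual restriction enzyme of this assay cuts and which is part of CCGGAAG, stood in 78.9% of promoters of isolated tiles, 80.8% of beside-dense, 94.9% of dense and 62.2% of all. The sparse classes thus held more CCAAT and TATA boxes and fewer GC boxes than dense tiles, as shares without a test.

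An isolated tile held a median of 7 cytosines from 6 CpG sites, covered by a median of 777 reads per library, summed over its cytosines. Its median level was 1.67%, with quartiles of 0.410% and 4.67%. Of the 6535, 2619 (40.1%) stood under 1% and 1483 (22.7%) at 5% or above. Beside-dense tiles also had a median of 7 cytosines from 6 CpG sites, with 986 reads, and a lower median level of 0.706% (quartiles 0.240% and 2.77%), and 1610 of 2857 (56.4%) stood under 1%. Dense unmethylated tiles, of which there were 10932, had a median of 0.285%. In mitochondrial DNA, which is commonly taken as unmethylated, 26 cytosines stood at 0.352% ± 0.0485 in KO and 0.284% ± 0.104 in WT (SD, n = 3 each).

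Values on both sides of the limits were alike. There were 250 sparse tiles at 9 to 10% and 272 at 10 to 11%. Tiles under 10% with 3 cytosines numbered 1180 and those with 2 cytosines 1358, with median levels of 1.83% and 2.12%. At the upper limit 492 such tiles had 14 cytosines and 460 had 15, with medians of 0.773% and 0.673%. An adjacent tile of 28 or 29 cytosines was found for 151 isolated tiles, and one of 30 or 31 for 128 beside-dense tiles. The named tiles nearest the level limit were one in Tmem120b (chromosome 5, 123077001 to 123078000) and one 29.4 kb from Sox1 (chromosome 8, 12429001 to 12430000), both at 9.98%. Just outside lay tiles in Chrm4 (chromosome 2, 91924001 to 91925000) and 31 kb from Ddx6 (chromosome 9, 44571001 to 44572000), both at the limit to 3 digits.

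The neighbours of a sparse tile went with its level. Of the 4475 sparse tiles next to a dense tile, 63.8% were under 10%. The share was 42.3% of 3084 tiles whose fullest neighbour had 15 to 29 cytosines, 9.56% of 30206 with 1 to 14, and 4.61% of 50866 with no measured cytosine on either side. Around isolated tiles, 4049 adjacent tiles had 3 or more cytosines, and 72.1% of these were themselves under 10%, 20.7% at 10 to 90% and 7.24% at 90% or above. Around fully methylated sparse tiles 6.60% of 12927 adjacent tiles were under 10%. Where neighbours were measured, isolation by the rule therefore often did not mean isolation from other unmethylated DNA. For 2343 isolated tiles no cytosine was measured on either side, so their surroundings are unknown.

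Sharp borders also occurred. In Lgals1, which encodes a galectin, an isolated tile with 14 cytosines at 0.212% (chromosome 15, 78928001 to 78929000) adjoined a tile at 98.6%. In Nfu1, an iron-sulfur cluster protein, a tile at 0.0319% (chromosome 6, 87010001 to 87011000) adjoined one at 97.4%, and in Abcf3 a tile at 0.275% that holds the gene's start (chromosome 16, 20548001 to 20549000) adjoined one at 97.6%.

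Methylation rose with distance from the dense tile. Over all sparse tiles beside an unmethylated dense tile, members or not, cytosines within 100 bp of the nearest measured cytosine of the dense tile averaged 2.5% ± 0.0668 in KO and 2.38% ± 0.0491 in WT. At 300 to 500 bp the means were 15.2% ± 0.167 and 14.9% ± 0.194, and at 1000 to 2000 bp 51.4% ± 0.311 and 50.7% ± 0.343. Members, held under 10% by the rule, rose from 1.05% ± 0.0495 in KO and 0.980% ± 0.00878 in WT within 100 bp to 5.77% ± 0.0766 and 5.41% ± 0.131 at 700 to 1000 bp, and stood at 4.21% ± 0.140 and 3.99% ± 0.101 beyond. The share of cytosines that belonged to members fell with distance, from 90.4% to 31.4%. In each of the 7 distance bins of members KO was higher, by 0.0710 to 0.362 percentage points, with exact permutation p from 0.1 to 0.6.

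**Figure D2:**
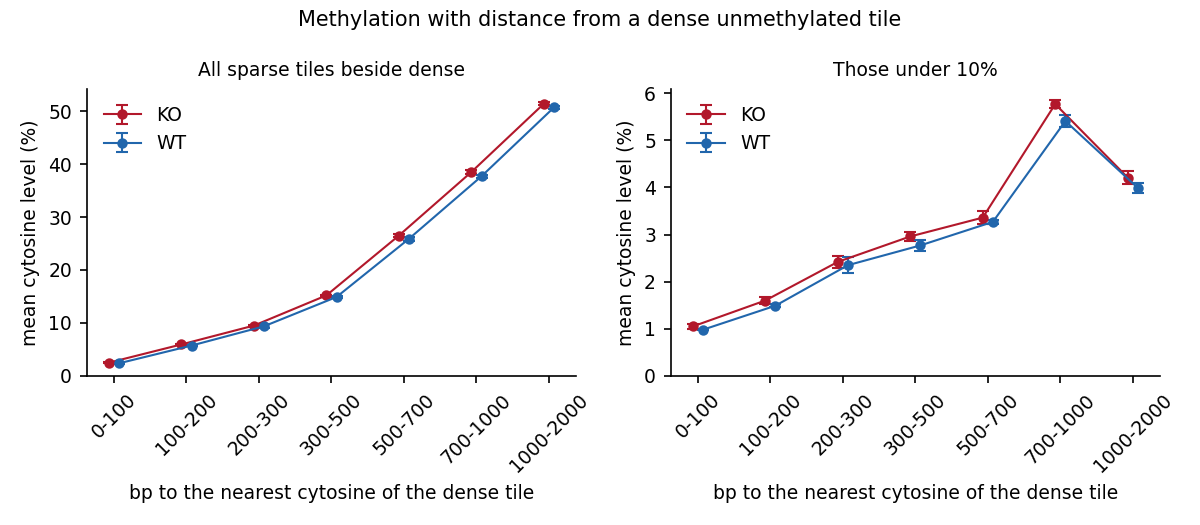
Mean cytosine level (y axes, %) by distance in bp to the nearest measured cytosine of the adjacent dense unmethylated tile (x axes), for all sparse tiles beside such a tile (left) and for those under 10% (right); points are means and bars SDs of 3 libraries per genotype. Levels rose from 2.5% to 51.4% in KO on the left and stayed under 6% on the right, where the rule holds them low.

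Position relative to genes differed between the kinds of tile. An annotated protein-coding start lay in 1469 isolated tiles (22.5%), and a start within 1 kb of 1002 more (15.3%). Another 2049 (31.4%) lay elsewhere in gene spans and 2015 (30.8%) outside. Beside-dense tiles held a start in 11.9% of cases and lay within 1 kb of one in 53.8%, with 9.38% outside genes. Of dense tiles 51.0% held a start, against 0.708% of sparse tiles methylated at 90% or more and 9.96% of all tiles. Starts of 17468 of 21896 protein-coding genes were known, so the shares with a start are lower bounds. On chromosome X lay 257 isolated and 56 beside-dense tiles, and 3 isolated tiles each were on chromosome Y and in mitochondrial DNA.

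Isolated tiles that held a start were the least methylated, at 1.58% ± 0.0268 in KO and 1.46% ± 0.0183 in WT. Those in gene spans away from starts stood at 3.52% ± 0.150 and 3.13% ± 0.118, and those outside genes at 3.78% ± 0.129 and 3.29% ± 0.0903. The difference of KO minus WT was 0.117, 0.393 and 0.496 percentage points in the same order, with all KO above all WT libraries each time (exact permutation p = 0.1, the smallest that 3 against 3 libraries allow). Levels also followed promoter sequence: isolated tiles with a promoter ratio under 0.3 had a median level of 1.4%, those at 0.3 to 0.6 one of 0.949%, and those at 0.6 or above one of 0.321%. KO and WT libraries overlapped in the lowest of these ratio groups, with means of 2.56% ± 0.0388 and 2.51% ± 0.130 (exact permutation p = 0.7), and were separate in the middle group, at 2.07% ± 0.0218 and 1.93% ± 0.0301, and in the highest, at 1.07% ± 0.0342 and 0.967% ± 0.0162 (exact permutation p = 0.1 each).

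Isolated tiles had higher means in KO, as had other kinds of tile. Their mean level was 3.0%, 3.01% and 2.82% in KO 1, KO 2 and KO 3 and 2.53%, 2.67% and 2.65% in WT 1, WT 2 and WT 3. Every KO library lay above every WT library, and WT 1 was the lowest. The means were 2.94% ± 0.106 and 2.62% ± 0.0752, a difference of 0.326 points (two-sided exact permutation p = 0.1). A higher mean in KO was shared across the genome. All tested tiles stood at 64.4% ± 0.196 in KO and 63.8% ± 0.214 in WT, or 0.641 points apart. Sparse tiles at 10 to 30% differed by 1.80 points, which is 10% of their WT mean, against 12.5% of it in isolated tiles, and sparse tiles at 90% or above by 0.327 points. In each of these classes every KO library lay above every WT library (exact permutation p = 0.1 each). In isolated tiles, medians over tiles gave the same order, 1.63% ± 0.0935 and 1.42% ± 0.0911, and 41.4% ± 1.67 of isolated tiles stood under 1% in KO against 44.0% ± 0.906 in WT. Among tiles under 5% it was 0.177 points. Without WT 1 the difference over all isolated tiles was 0.283 points.

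Beside-dense tiles differed less. Their mean level was 1.96%, 2.03% and 1.84% in the KO libraries and 1.78%, 1.79% and 1.85% in the WT libraries, and KO 3 lay below WT 3. The means of 1.94% ± 0.0997 and 1.81% ± 0.0374 differed by 0.136 points (exact permutation p = 0.2). Unmethylated tiles of 15 to 29 cytosines, between the sparse and the dense, stood at 1.79%, 1.83% and 1.70% in KO and 1.68%, 1.65% and 1.67% in WT, which did not overlap (a difference of 0.102 points, exact permutation p = 0.1). Dense tiles stood at 1.14% ± 0.0593 and 1.06% ± 0.0213, a difference of 0.0815 points (exact permutation p = 0.2), which was 0.0523 without KO 2. Isolated tiles exceeded dense tiles by 1.80 points in KO and 1.56 in WT, and exceeded beside-dense tiles by 0.997 points in KO and 0.808 in WT. Both gaps were wider in KO, by 0.244 and 0.190 points, with every KO library above every WT library (exact permutation p = 0.1 each). Of 64 comparisons of library means 35 reached the smallest p of 0.1, and after Benjamini-Hochberg adjustment over the 64 the smallest exact permutation p was 0.183.

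**Figure D3:**
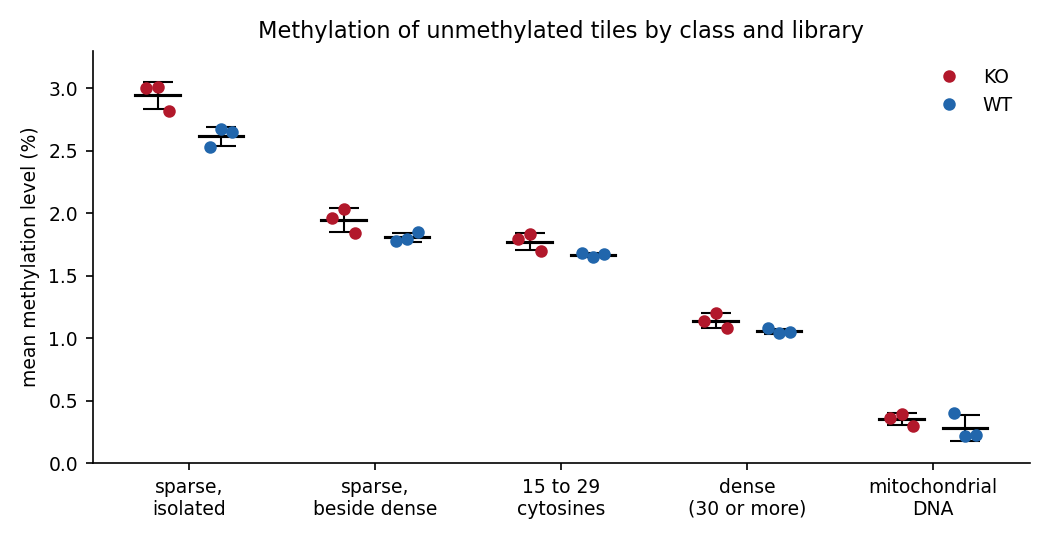
Mean methylation level (y axis, %) of each library (points) in 4 classes of unmethylated tiles and in mitochondrial DNA (x axis), with the mean and SD of 3 libraries per genotype as lines and bars. In isolated sparse tiles the KO libraries lay at 2.82 to 3.01% and the WT libraries at 2.53 to 2.67%, the genotypes were also separate in unmethylated tiles of 15 to 29 cytosines, and overlapped in beside-dense, dense and mitochondrial DNA.

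Since isolated tiles had higher levels than dense tiles, the classes were also compared at matched level, a comparison chosen after the data were seen. Among tiles at 0 to 1% isolated tiles differed between genotypes by 0.0439 points and dense tiles by 0.0426 points. At 1 to 3% the differences were 0.246 and 0.124 points, at 3 to 5% 0.436 and 0.229, and at 5 to 10% 0.833 and 0.297. The difference between the classes was 0.00124 points at 0 to 1% (exact permutation p = 1), 0.122 at 1 to 3% (p = 0.1), 0.207 at 3 to 5% (p = 0.3) and 0.536 at 5 to 10% (p = 0.1). Against beside-dense tiles it was 0.0263, 0.109, 0.191 and 0.275 points, with exact permutation p of 0.2, 0.1, 0.3 and 0.2. Under 1%, isolated tiles thus exceeded dense tiles by 0.0939 ± 0.0151 points in KO and 0.0927 ± 0.0185 in WT, and from 1% up their genotype difference was larger in value, without adjustment for the 64 comparisons.

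**Figure D4:**
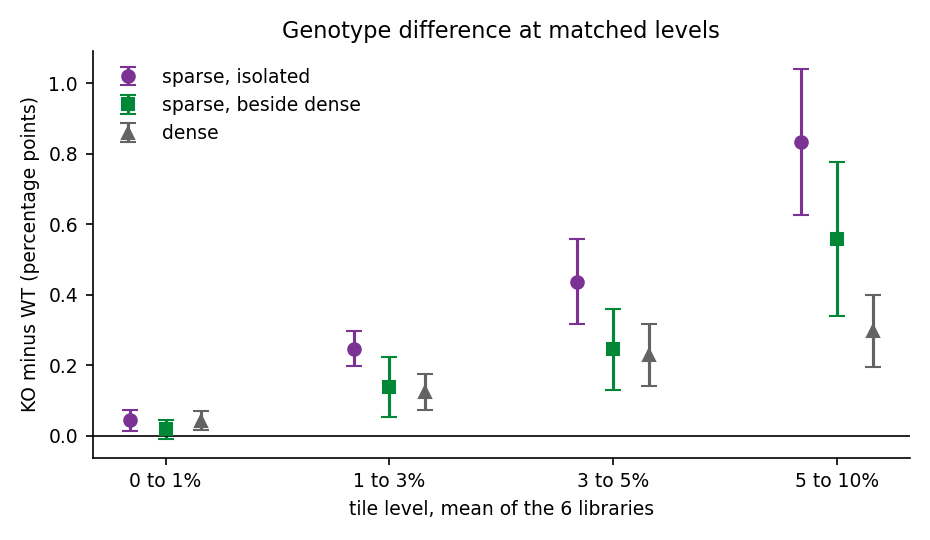
Difference of KO minus WT in mean level (y axis, percentage points) by the level of the tile over all 6 libraries (x axis) for 3 tile classes; bars are the standard error from the SDs of 3 libraries per genotype. Isolated sparse tiles rose from 0.0439 points at 0 to 1% to 0.833 points at 5 to 10%, and dense tiles from 0.0426 to 0.297.

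Tiles with fewer cytosines showed a larger difference. Isolated tiles with 3 to 4 cytosines stood at 3.61% ± 0.134 in KO and 3.10% ± 0.198 in WT, those with 5 to 9 at 2.90% ± 0.0916 and 2.58% ± 0.0431, and those with 10 to 14 at 2.37% ± 0.105 and 2.21% ± 0.0203 (exact permutation p = 0.1 each). On chromosome X, 257 isolated tiles overlapped between genotypes, at 2.06% ± 0.0357 and 1.93% ± 0.226 (exact permutation p = 0.4). Coverage also moved with genotype. Dense tiles took 48.8% ± 1.37 of reads in KO and 53.5% ± 2.30 in WT, and beside-dense tiles 1.64% ± 0.0249 and 1.76% ± 0.111 (exact permutation p = 0.1 each). Isolated tiles took 3.33% ± 0.0570 and 3.22% ± 0.172 (exact permutation p = 0.4), and all sparse unmethylated tiles 4.97% ± 0.0794 and 4.98% ± 0.0754 (exact permutation p = 0.7). The part of coverage in the level differences was not tested. With each cytosine weighted equally, whatever its coverage, isolated tiles differed by 0.332 points.

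No single tile passed the test across tiles. A quasi-binomial model on C and T reads with limma's moderation, adjusted over all 108943 tiles, called 0 isolated and 0 beside-dense tiles at an adjusted p under 0.05 (background 0% of all tiles). Under this model 311 isolated tiles (4.76%) were higher in KO at an unadjusted p under 0.05, against 5.54% of all tiles, and 1.56% lower, against 1.43%. Of beside-dense tiles 95 (3.33%) were higher and 36 (1.26%) lower. By edgeR, which also called 0, the counts at the same unadjusted threshold were 362 isolated tiles (5.54%) higher in KO and 167 (2.56%) lower, and 139 (4.87%) and 92 (3.22%) beside-dense tiles, against 4.17% and 1.42% of all tiles. By limma, which called 0, the isolated tiles were 474 (7.25%) and 203 (3.11%) and the beside-dense tiles 151 (5.29%) and 63 (2.21%), against 5.25% and 1.39%. The shares higher in KO thus lay under the background by one tool and above it by the other tools, and no order is read from them. All KO libraries stood above all WT libraries in 466 isolated (7.13%) and 165 beside-dense tiles (5.78%), against 8.34% of all tiles, and below in 3.01% and 3.57%, against 3.36%. In simulated data the quasi-binomial model called 8% of sparse tiles raised by 3 points in KO and 50% of those raised by 12. Its 0 calls therefore do not show that no tile differed. In the real data the number of calls depended on the settings. Requiring at least 20 reads per cytosine gave 34 calls over all tiles (0.0355%), 2 of them isolated. Holding the overdispersion at 1 before its moderation gave 742 calls over all tiles (0.681%, or 0.610% higher in KO), 25 of them isolated, of which 22 were higher in KO. How many of the calls in this order are false was not established. No beside-dense tile was called at either setting. The 3 lower ones, named after their values were seen, were in Mlph, a melanosome transport protein (5.16% ± 2.41 in KO and 9.95% ± 0.789 in WT), Abcc3, a transporter (7.56% ± 5.0 and 10.6% ± 4.23), and Cd80, a ligand by which B cells costimulate T cells. The Abcc3 libraries overlapped, at 13.3%, 4.86% and 4.50% in KO and 5.77%, 13.6% and 12.5% in WT. In the planned order the quasi-binomial adjusted p was 0.499 for the Mlph tile and 0.758 for the Abcc3 tile. The Cd80 tile (chromosome 16, 38476001 to 38477000) stood at 0%, 0% and 0.274% in KO and 0.281%, 1.46% and 2.63% in WT, with a quasi-binomial adjusted p of 0.565 in the planned order.

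Over isolated tiles the median difference of KO minus WT was 0.111 points, beside 0.174 over all tiles, and 3799 of 6535 (58.1%) were higher in KO, beside 59.7% of all tiles. Over beside-dense tiles the median was 0.0250 points and 1516 of 2857 (53.1%) were higher. Differences of 5 points or more were gains in 76 and losses in 9 isolated tiles, and gains in 11 and losses in 4 beside-dense tiles. The shares of gains were 1.16% and 0.385% and those of losses 0.138% and 0.140%, against 5.92% and 1.90% of all tiles. A level under 10% leaves little room for such differences, so shares under those of all tiles are bound to the rule and are no result. Dense unmethylated tiles, also under 10%, had 0% gains and 0.00915% losses, and sparse tiles at 10 to 30% had 18.6% and 4.32%.

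The tiles of smallest p in each direction are given as values, with differences pooled over the reads of each genotype. Choice by smallest p favours tiles whose libraries separate by genotype, so separation in these tiles is no further result. In Sec22c, a protein of vesicle traffic from the endoplasmic reticulum, 14 cytosines (chromosome 9, 121682001 to 121683000) stood at 9.99%, 12.2% and 12% in KO and 4.58%, 4.15% and 4.25% in WT. The genotypes did not overlap, and the difference of 7.23 points had an adjusted p of 0.0593 by the quasi-binomial model. In Dgkg, a kinase that turns diacylglycerol into phosphatidic acid, 6 cytosines (chromosome 16, 22466001 to 22467000) stood at 10.4%, 14.4% and 15.4% in KO and 2.82%, 4.10% and 4.24% in WT, a difference of 10.1 points (quasi-binomial adjusted p = 0.0642). These were the 2 tiles called when at least 20 reads were required.

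A tile 6.91 kb from Alg14, a subunit of an enzyme of N-glycan synthesis, had the largest pooled difference of the 9392 tiles (chromosome 3, 121370001 to 121371000). It stood at 19.0%, 16.7% and 14.7% in KO and 0.431%, 2.88% and 6.15% in WT, or 13.5 points (quasi-binomial adjusted p = 0.0873). Besides Dgkg, 2 further tiles differed by 10 points or more and were named after their values were seen. A tile in Tjap1, a protein of tight junctions, stood at 0%, 6.45% and 22.6% in KO and 0%, 0% and 0.325% in WT, so that KO 1 lay with the WT libraries (chromosome 17, 46282001 to 46283000, quasi-binomial adjusted p = 0.551). A tile 1.61 kb from Ntn3, a netrin, stood at 23.3%, 4.46% and 19.2% in KO and 1.09%, 0% and 2.27% in WT (chromosome 17, 24211001 to 24212000, quasi-binomial adjusted p = 0.694). Its counts were 56 to 224 per library, summed over 4 cytosines, so the reads behind them can be fewer.

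Lower values in KO were smaller in size. In Kif5a, a neuronal kinesin, 3 cytosines (chromosome 10, 127262001 to 127263000) stood at 0.209%, 0.485% and 0% in KO and 3.06%, 2.88% and 5.21% in WT (quasi-binomial adjusted p = 0.389). A tile with the start of Fndc11 (chromosome 2, 181220001 to 181221000) had no C read in KO and 0.902%, 0.50% and 1.15% in WT (quasi-binomial adjusted p = 0.397). Its counts, summed over 5 cytosines, were 1131 to 1446 per library. A KO count of 0 (3 counts at most, in the library of fewest reads) allows up to 0.262% if all counts are independent. The cytosines lie at 181220074 to 181220123, so a read can count several times, and the limit is then higher. In Cdc42ep3, an effector of the GTPase Cdc42, levels were 2.77%, 3.87% and 3.96% in KO and 5.87%, 8.06% and 7.60% in WT (chromosome 17, 79353001 to 79354000, quasi-binomial adjusted p = 0.440). The genotypes were separate in all 3 tiles, and the differences were -3.53, -0.846 and -3.56 points.

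Of the beside-dense tiles, one 0.177 kb from Agps, an enzyme of ether lipid synthesis, had the smallest p (chromosome 2, 75831001 to 75832000). It stood at 3.89%, 5.74% and 4.98% in KO and 1.58%, 1.88% and 2.42% in WT, a difference of 3.02 points (quasi-binomial adjusted p = 0.338). In Adam11, a membrane protein of the brain, levels were 13.9%, 9.57% and 12.3% in KO and 3.84%, 6.90% and 3.79% in WT (chromosome 11, 102762001 to 102763000, quasi-binomial adjusted p = 0.434). In Flrt2, a cell adhesion protein, they were 4.01%, 3.07% and 5.46% and 1.09%, 0.776% and 1.96% (chromosome 12, 95693001 to 95694000, quasi-binomial adjusted p = 0.553). In all 3 tiles every KO library lay above every WT library, and the highest adjacent tile stood at 0.197%, 0.842% and 1.79%.

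In the other direction, a tile in Msrb3, a methionine sulfoxide reductase, stood at 0.0661%, 0.0962% and 0.409% in KO and 2.18%, 1.03% and 1.39% in WT (chromosome 10, 120899001 to 120900000, quasi-binomial adjusted p = 0.460). In Ubox5, a ubiquitin ligase, levels were 3.56%, 7.61% and 6.62% and 15.4%, 8.86% and 10.8% (chromosome 2, 130630001 to 130631000, quasi-binomial adjusted p = 0.548). In Ube2b, a ubiquitin-conjugating enzyme, no C read was found in KO, and levels in WT were 1.08%, 0.628% and 0.351% (chromosome 11, 51999001 to 52000000, quasi-binomial adjusted p = 0.553). The absence of C reads allows up to 0.312% if counts of different cytosines are independent, and more if they share reads. No KO value reached a WT value in these tiles.

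**Figure D5:**
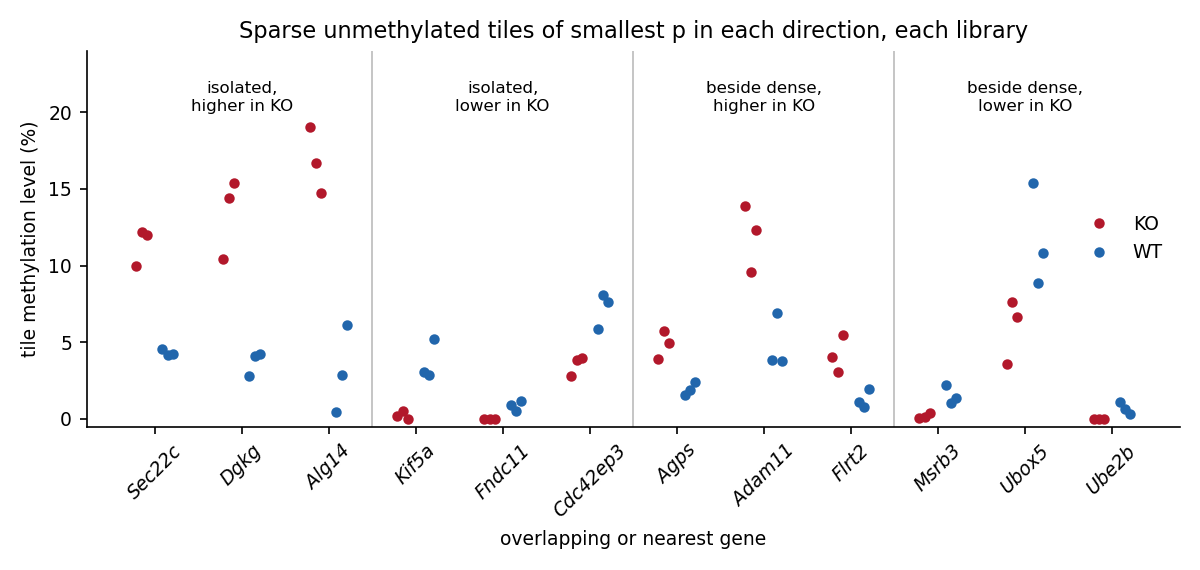
Methylation level (y axis, %) of each KO and WT library (points) in the 12 sparse unmethylated tiles of smallest p by direction and class (x axis, named by the overlapping or nearest gene). In each tile the genotypes are separate, which the choice by smallest p favours. The quasi-binomial adjusted p ranged from 0.0593 for Sec22c to 0.553 for Flrt2 and Ube2b.

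Gene lists for the B lineage, other cell types and housekeeping functions were described by their counts, with no test. Isolated tiles lay in or within 1 kb of 9 of 15 B cell identity genes that had any sparse tile, 9 of 15 genes of B cell receptor signalling and 6 of 14 genes of naive B cell trafficking and quiescence (42.9%), beside 27.7% of all 14682 such genes. The share was 5 of 14 for housekeeping genes (35.7%), 4 of 16 for T cell genes (25%), 3 of 9 for myeloid genes (33.3%), 2 of 6 for erythroid and NK genes (33.3%) and 4 of 14 for liver and neuron genes (28.6%). Counted per sparse tile, which allows for long genes, isolated tiles made up 15.3% of 124 in B cell identity genes, 10.3% of 136 in receptor signalling, 12.7% of 63 in trafficking and 24% of 25 in housekeeping genes. They made up 6.49% of 77 in T cell genes, 13% of 23 in myeloid, 4.76% of 42 in erythroid and NK and 6.19% of 113 in liver and neuron genes, beside 8.67% of all 53615. The median difference of KO minus WT over isolated and beside-dense tiles of a list ran from -0.109 points for housekeeping to 0.538 points for T cell genes, beside 0.0582 for all genes. These extremes rest on few tiles, with 4 of 9 housekeeping and 5 of 8 T cell tiles higher in KO, beside 7368 tiles of all genes.

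Among B cell identity genes, the tile with the start of Ebf1 (chromosome 11, 44620001 to 44621000, 14 cytosines) stood at 5.47%, 9.59% and 9.81% in KO and 7.17%, 6.78% and 9.95% in WT. The genotypes overlapped, and single cytosines ranged from 0.828% to 44.5%. In Bach2, a repressor that guards B cell fate, a beside-dense tile was at or under 0.381% in every library and every KO value was below every WT value (chromosome 4, 32240001 to 32241000). In Irf8, an interferon regulatory factor, a tile within the gene (chromosome 8, 120747001 to 120748000) stood at 12.1%, 10.9% and 7.80% in KO and 7.86%, 7.41% and 8.02% in WT, which overlap, with an adjacent tile at 82.5%.

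Of the 11 isolated and beside-dense tiles in trafficking genes 7 stood under 1%, with a median of 0.298% and a highest level of 4.05%, beside a median of 0.990% over all genes. The Cxcr4 tile (chromosome 1, 128592001 to 128593000, 14 cytosines), whose promoter is printed above, ranged from 0% to 0.598% over the libraries, the tile in Bcl2, which blocks apoptosis (chromosome 1, 106713001 to 106714000), from 0% to 0.312%, and that in S1pr1, the receptor for exit from lymphoid organs (chromosome 3, 115714001 to 115715000), from 0% to 0.699%. In receptor signalling, the tile in Pik3cd, the lymphocyte PI3-kinase subunit (chromosome 4, 149696001 to 149697000), ranged from 0% to 0.556%, and that of Vav2, an exchange factor (chromosome 2, 27427001 to 27428000), from 0% to 0.0783%. Prkcb, a kinase downstream of the B cell receptor, was higher, at 3.23%, 6.67% and 3.70% in KO and 3.6%, 2.89% and 2.30% in WT (chromosome 7, 122290001 to 122291000), with overlapping genotypes. Adjusted p of the tiles in this paragraph and the one before it ran from 0.756 to 0.995 by the quasi-binomial model.

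Genes of other cell types also held such tiles. In Gata3, a T helper cell factor, a beside-dense tile stood at 4.91% ± 0.566 in KO and 5.32% ± 0.789 in WT (chromosome 2, 9884001 to 9885000). Thy1, a T cell surface protein, stood at 5.08% ± 0.994 and 3.47% ± 1.26 (chromosome 9, 44047001 to 44048000), next to a tile at 94.2%, and Cd247, the zeta chain of the T cell receptor, at 4.57% ± 1.14 and 3.49% ± 0.787 (chromosome 1, 165781001 to 165782000). In Spi1, the transcription factor PU.1 of myeloid and B cells, a tile ranged from 0% to 0.851% (chromosome 2, 91097001 to 91098000). Fcgr3, an Fc receptor, stood at 2.34% ± 0.435 and 1.5% ± 0.613 (chromosome 1, 171065001 to 171066000), and Csf3r at 5.0% ± 2.87 and 4.42% ± 1.05 (chromosome 4, 126024001 to 126025000). KO and WT libraries overlapped in the tiles of Gata3, Thy1, Cd247, Spi1 and Csf3r. In that of Fcgr3 they barely separated, with KO 1 at 2.07% and WT 1 at 2.06% (quasi-binomial adjusted p = 0.911). The Fcgr3 counts, summed over 6 cytosines, were 118 to 635 per library.

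Tbx21 stood at 1.30% ± 0.404 in KO and 1.51% ± 1.0 in WT (chromosome 11, 97115001 to 97116000), and Ank1, of the red cell membrane skeleton, at 0.594% ± 0.460 and 0.371% ± 0.446 (chromosome 8, 23150001 to 23151000). The tile with the start of Neurod1 stood at 2.53% ± 1.79 and 2.58% ± 0.192 (chromosome 2, 79456001 to 79457000), that in Rbfox3, a neuronal splicing factor, at 3.16% ± 0.314 and 2.96% ± 1.64 (chromosome 11, 118610001 to 118611000), and that beside Snap25, a synaptic SNARE, at 6.85% ± 3.49 and 6.28% ± 0.964 (chromosome 2, 136712001 to 136713000). All 9 isolated and beside-dense tiles of housekeeping genes stood under 1%, with a median of 0.260% and a highest level of 0.762%, and the 3 named all lie beside dense tiles, where levels were lower. Polr2a, the largest subunit of RNA polymerase II, stood at 0.106% ± 0.184 and 0.413% ± 0.286 (chromosome 11, 69759001 to 69760000), and Ywhaz, a 14-3-3 protein, at 0.0436% ± 0.0125 and 0.148% ± 0.113 (chromosome 15, 36794001 to 36795000). Eef1a1, a translation elongation factor, stood at 0% in all KO libraries and 0.709% ± 0.786 in WT (chromosome 9, 78480001 to 78481000). The 0% allows up to 0.654% if counts of different cytosines are independent, and more if they share reads.

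Most isolated tiles had no other isolated tile within 5 kb, though other unmethylated tiles could lie nearby. With neighbours joined within 5 kb, off chromosome 18, 4370 tiles were single, 782 pairs were found, 3 groups held 7 tiles and the longest held 8. That group, with 75 cytosines in 14 kb beside Tbx3, a T-box factor of limb and heart development (chromosome 5, 119656001 to 119670000), stood at 6.89%, 6.56% and 5.91% in KO and 4.73%, 5.36% and 5.85% in WT. The genotypes were separate, with KO 3 just above WT 3 (means 6.45% ± 0.50 and 5.31% ± 0.558, exact permutation p = 0.1). A group of 7 tiles around Dlx1 and Dlx2, homeobox genes of forebrain development (chromosome 2, 71532001 to 71541000), stood at 7.13% ± 0.927 and 5.94% ± 0.263 (exact permutation p = 0.2). A second group of 7, at Irx4, a homeobox gene of the heart (chromosome 13, 73262001 to 73273000), stood at 4.02% ± 0.365 and 3.8% ± 0.680 (exact permutation p = 0.7). The third group of 7 lay at Hoxc6, a homeobox gene of body patterning, and was added after the values were seen (chromosome 15, 102987001 to 103004000). It stood at 5.30% ± 0.633 and 5.68% ± 0.372, with overlapping libraries (exact permutation p = 0.5). Tile levels in these 4 groups ranged from 0.798% to 9.51%.

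Single cytosines could pass the limit that the rule sets for the tile. Of 47850 cytosines in isolated tiles 93.9% were under 10%, and of 22123 in beside-dense tiles 96.1%, shares that the rule keeps high. The median range between the lowest and the highest cytosine of a tile was 3.61 points in isolated and 2.07 points in beside-dense tiles. At least 1 cytosine at 10% or above was found in 1754 isolated tiles (26.8%) and 537 beside-dense tiles (18.8%). Between libraries, the SD of a tile's level over the 3 libraries had a median of 0.776 points in KO and 0.674 in WT for isolated tiles, and 0.478 and 0.391 for beside-dense tiles.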

How the data were processed

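Cytosines of CpGs were measured by bisulfite sequencing in 3 KO and 3 WT libraries. The reads were processed with Bismark on GRCm38, per the submitters' processing notes, without a version. The deposited coverage is a raw count of reads per cytosine, with a minimum of 10, and methylation was deposited as 2 columns with the percent of reads that show C and T, per the file headers. Multiplying these by coverage gave the C and T reads, of which 100% were whole within the rounding of the percent. The 1457048 cytosines shared by all libraries were grouped in tiles, whose level is pooled over reads. Reads are not unique molecules, and tile counts are summed over cytosines, so a read counts once for each cytosine it covers. Limits from depth take these counts as independent and cover counting error only. Every test used the libraries as replicates. Same-numbered libraries were not treated as paired except in the replicate block, and their deviations showed no pairing but cannot exclude it.

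Tiles with 3 or more cytosines entered a quasi-binomial model, with overdispersion moderated by limma 3.58.1 (squeezeVar) and then held at 1 or above, an F test and Benjamini-Hochberg adjustment. It was tested on simulated data whose overdispersion was set from the real tiles, after a first simulation with constant overdispersion recovered no changed tile. The model itself was not altered. Of simulated sparse tiles raised in KO by 3, 5, 8 and 12 points, it called 4, 8, 19 and 25 of 50 each. It called 0 of 108743 unchanged tiles. With the overdispersion held at 1 before moderation, 11, 14, 27 and 34 of the 50 were called, and calls among unchanged tiles are not given for that order. Library means were compared by two-sided exact permutation. Alternatives were coverage of 20, each library left out, a replicate block, edgeR 4.0.16, limma on log2((C + 2)/(T + 2)), no moderation, equal weights, a cap on coverage and other limits for the tiles; the moderation order and matched levels were added after seeing the data. The members, gene lists and tests were chosen with earlier results of these data known. Named tiles were the 3 of smallest p per class and direction, up to 3 per list with most cytosines, the 3 longest groups, those nearest the level limit and those of largest internal spread or step; chromosome 18 was counted but not named. A call needed an adjusted p under 0.05, without a minimum difference.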

Additional observations from a re-analysis of the deposited data

How the results depend on the processing

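The genotype differences of mean levels kept their direction under the alternatives run, and none could pass 0.05, since 3 against 3 libraries give no exact p below 0.1. With 1 library left out, the difference was 0.283 to 0.387 points for isolated tiles, 0.0910 to 0.190 for beside-dense and 0.0523 to 0.112 for dense tiles, and the excess of isolated over dense tiles was 0.190 to 0.280 and over beside-dense tiles 0.160 to 0.224. No call was made in either class with a library left out (0 to 0 tiles), by edgeR, by limma, without moderation, with equal weights or with the replicate block. Isolated tiles gave 2 calls at a coverage minimum of 20 (34 over all tiles) and 25 (22 gains, 3 losses; 742 over all tiles) with the overdispersion held at 1 before moderation, an alternative added after seeing the data. With tiles under 5% the differences fell to 0.177 (isolated), 0.0727 (beside-dense), 0.107 (isolated over dense) and 0.104 points (isolated over beside-dense), and with tiles chosen by WT level they were 0.507, 0.203, 0.422 and 0.304, a choice on low WT values that itself favours a higher KO value and says nothing about stability. The cause of these shifts was not tested. The share of reads in the sparse tiles changed sign with 1 library left out, from -0.0572 to 0.0292 points around -0.0124: it was 0.00153 without KO 2, 0.0185 without KO 3 and 0.0292 without WT 3. Deviations of same-numbered libraries had correlations of 0.0124, -0.0201 and -0.0244, and not every library correlated best with its own number. Other-numbered libraries had correlations of -0.0133 to 0.0341, so these values show no pairing and cannot exclude it. The replicate block left the mean differences at 0.326 and 0.136 points (exact sign-flip p = 0.25 and 0.5). Depth is low in single tiles: that near Ntn3 rests on counts of 56 to 224 per library, summed over 4 cytosines.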

Other observations

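Single cytosines of high methylation stood inside some of these tiles. In isolated tiles 122 of 47850 cytosines, in 100 tiles, were at 50% or above, and 25 at 90% or above; in beside-dense tiles there were 67 in 54 tiles and 26 at 90% or above. The other strand of the same CpG was measured for 1 of the 122, where it was under 10%, and for 4 of the 67, where it was at 50% or above for 2 and under 10% for 1. In dense unmethylated tiles it was measured for 175 of 874 such cytosines and was itself at 50% or above for 138. The widest spread was in the tile with the start of Dpm3, a subunit of dolichol-phosphate mannose synthase (chromosome 3, 89266001 to 89267000), in Zfp790 (chromosome 7, 29819001 to 29820000) and in Dalrd3 (chromosome 9, 108570001 to 108571000). In each of these a cytosine at 100% to 3 digits lay in a tile with another at 0%, and the tiles stood at 3.49%, 6.27% and 3.66%.

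The 3 isolated tiles on chromosome Y stood at 4.69%, 3.37% and 5.82% in KO and 3.27%, 2.42% and 1.82% in WT (exact permutation p = 0.1). One of them holds the start of Eif2s3y, a translation initiation factor gene (1010001 to 1011000), and stood at 7.30% ± 1.63 in KO and 0.630% ± 0.558 in WT (quasi-binomial adjusted p = 0.177). This tile was named after its values were seen. It had 317 to 492 reads per library, summed over 8 cytosines, so every library held reads assigned to chromosome Y.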
